A study of Rattus norvegicus with 4 samples.

Results

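The 7 genes described here encode enzymes of cholesterol synthesis: Hmgcs1, Mvd, Idi1, Fdft1, Sqle, Lss and Dhcr7. They were chosen by symbol, without use of their values, and each had 1 row among the 13554 genes of the count table. Articular cartilage, the tissue of the joint surface, was compared with xiphoid cartilage, the tip of the sternum, in Sprague-Dawley rats aged 8 to 10 weeks. Each tissue had 2 RNA-seq libraries, and the labels name no treatment and no allele for either tissue. The joint, the sex, the number of animals and any pooling are not stated in the labels. The p-values therefore measure only the spread between these libraries, which may be technical.

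Cholesterol is built from acetyl-CoA by way of mevalonate, isoprenoid diphosphates, squalene and lanosterol. When sterol in the endoplasmic reticulum is low, the escort protein SCAP carries the transcription factors SREBP-1 and SREBP-2 to the Golgi, where proteases release them to act on genes of sterol and fatty acid synthesis; INSIG proteins hold the complex back when sterol is plentiful. The early steps also feed nonsterol products such as dolichol, ubiquinone and the lipid anchors of small GTPases. In cartilage, cholesterol made in chondrocytes serves membranes and is needed for the covalent modification of hedgehog ligands.

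The libraries held 7351010 to 8434820 counts. The chondrocyte markers, 12 of 12 matched with 0 at no count in either tissue, summed to 111966 and 133234 CPM (TMM-scaled library-size normalised counts) in articular cartilage and to 34075 and 36768 CPM in xiphoid cartilage. Of these 12, 7 were called higher in articular and 2 higher in xiphoid cartilage, and 3 missed the threshold. Their median log2 fold change (articular minus xiphoid) was 0.47, and the most abundant marker weighs heavily in the sums. Over all tested genes, 49.5% were called, 25.0% toward articular and 24.5% toward xiphoid cartilage. Markers of several other cell types moved with tissue. The 8 matched adipocyte markers summed to 69.6 and 84.6 CPM in articular and 2318 and 2952 CPM in xiphoid cartilage, with Lep at no count in articular cartilage, and 8 of 8 were higher in xiphoid cartilage. The 10 skeletal muscle markers summed to 239 and 307 against 9159 and 9412 CPM, with Pvalb at no count in articular cartilage. Of the 10, 9 were higher in xiphoid cartilage, and most of the articular sum came from the muscle marker that was not called. The 7 erythroid markers ran the other way, at 6808 and 6813 against 564 and 615 CPM, as did the 6 osteoclast markers, at 1924 and 2012 against 142 and 151 CPM with Atp6v0d2, Calcr and Oscar at no count in xiphoid cartilage. Also toward articular cartilage were 6 of 7 tested osteoblast markers (sums of 8072 and 8804 against 5978 and 6510.0 CPM, Phex at no count in xiphoid cartilage), 5 of 6 neutrophil markers (178 and 180.3 against 10.3 and 12.7 CPM, Elane, Camp and Ngp at no count there) and 3 of 4 B cell markers (31.6 and 32.6 against 12.3 and 14.4 CPM, Cd79b, Vpreb1 and Pax5 at no count there). Nearly all of the xiphoid osteoblast and B cell sums, and most of the neutrophil sum, came from the tested marker of each list that was not called. That osteoblast marker was at 5516 and 5979 CPM in articular and 5961 and 6495 CPM in xiphoid cartilage. The neutrophil marker was at 14.1 and 13.9 against 9.29 and 12.6 CPM. Toward xiphoid cartilage were 5 of 6 smooth muscle markers (51.9 and 52.3 against 319 and 324 CPM) and 5 of 8 fibroblast markers (1514 and 1652 against 3789 and 3867 CPM). In each of these lists 1 marker was called the other way, toward articular cartilage. The most abundant smooth muscle marker alone gave 169 and 165 CPM of the xiphoid sums. Of the endothelial, macrophage and Schwann cell markers, 4 of 7 (57.1%), 3 of 8 (37.5%) and 2 of 6 (33.3%) tested were called in either direction. Such shares lay near or below the 49.5% of all tested genes. These tissue differences in makeup accompany every comparison below, and their part in the enzyme results was not tested. In bulk RNA, fewer cells of a type and less RNA per cell cannot be told apart.

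Promoter sequence was matched for 5 of the 7 genes in RefSeq (build GRCr8), and not for Fdft1 and Sqle. The 250 bases before the start are shown for Idi1 and Dhcr7, the enzyme genes with the largest difference in each direction, and for Hmgcs1, the gene with the smallest. Capitals mark matches, on either strand, to the NF-Y box, spelled CCAAT, and to the GC box, spelled GGGCGG.
Hmgcs1 (chr2:53382054-53382303, plus strand): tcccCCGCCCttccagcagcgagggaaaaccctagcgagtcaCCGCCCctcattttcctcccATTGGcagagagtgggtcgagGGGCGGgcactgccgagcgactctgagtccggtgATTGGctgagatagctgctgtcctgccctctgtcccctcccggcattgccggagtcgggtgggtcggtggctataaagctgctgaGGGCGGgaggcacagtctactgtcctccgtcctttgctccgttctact
Idi1 (chr17:66547525-66547774, minus strand): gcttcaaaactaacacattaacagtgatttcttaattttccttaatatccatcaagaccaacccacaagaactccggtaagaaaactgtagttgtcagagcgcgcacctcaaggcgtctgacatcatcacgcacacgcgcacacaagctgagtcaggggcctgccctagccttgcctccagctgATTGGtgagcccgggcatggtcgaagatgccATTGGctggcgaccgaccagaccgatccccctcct
Dhcr7 (chr1:208444184-208444433, plus strand): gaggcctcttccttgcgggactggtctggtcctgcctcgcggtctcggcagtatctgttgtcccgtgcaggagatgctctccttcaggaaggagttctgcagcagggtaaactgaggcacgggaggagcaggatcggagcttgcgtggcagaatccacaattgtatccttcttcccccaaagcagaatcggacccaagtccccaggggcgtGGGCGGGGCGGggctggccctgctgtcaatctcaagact
Idi1 had 2 matches to the NF-Y box and 0 to the GC box, Dhcr7 had 0 and 2 (which overlap), and Hmgcs1 had 2 and 4. Of the 5 matched genes, 4 (Hmgcs1, Mvd, Idi1 and Lss) had an NF-Y box, against 34.29% of 27457 rat promoters of this length, and 4 (Hmgcs1, Mvd, Lss and Dhcr7) had a GC box, against 32.39% of all promoters and 58.95% of the 9143 promoters of tested genes. An SREBP site spelled TCACNCCAC was found in 0 of 5 (0.98% of all promoters), and its inner part CACNCCAC, which every TCACNCCAC also holds, in 0 of 5 (4.84%). These are letter matches in a short window, and no match says only that those letters are not in it.

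Of the 7 enzymes, Dhcr7 and Fdft1 were higher in xiphoid cartilage, Idi1 was higher in articular cartilage, and Hmgcs1, Mvd, Sqle and Lss did not pass the test (edgeR quasi-likelihood test, p-values adjusted by Benjamini and Hochberg, BH, over 11202 genes tested, threshold 0.05). All 7 passed the filter on low counts. The same test called 49.5% of all tested genes, 25.0% as higher in articular and 24.5% as higher in xiphoid cartilage, so 3 of 7 called, 1 toward articular and 2 toward xiphoid cartilage, lay close to the background. The median log2 fold change (articular minus xiphoid) of the 7 was -0.27, against -0.02 over all genes tested. The 7 genes ran from -2.48 for Dhcr7 to 2.02 for Idi1, inside the range of -14.1 to 12.1 over all genes tested.

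**Figure D1:**
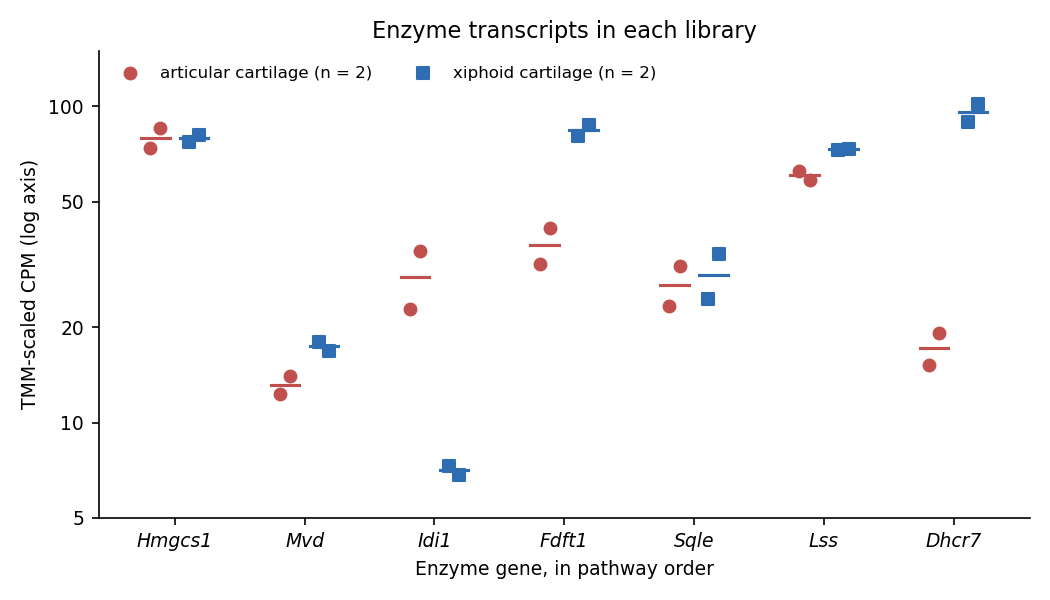
TMM-scaled CPM of the 7 enzyme genes (log axis, pathway order) in each articular (circles) and xiphoid (squares) library; bars are means of 2 libraries. The tissues part widely for Idi1, Fdft1 and Dhcr7, and their libraries overlap for Hmgcs1 and Sqle.

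Hmgcs1 (Entrez gene 29637) encodes the cytosolic synthase that makes HMG-CoA, the substrate of the rate-limiting reductase. Its level was 73.9 and 85.3 CPM in the articular libraries (618 and 664 counts) and 77.0 and 81.4 CPM in the xiphoid libraries (655 and 594 counts). The xiphoid values lay inside the articular range. The log2 fold change was 0.0074 (SE 0.15, 95% interval -0.33 to 0.34, BH-adjusted p = 0.974), which bounds a difference at 1.27-fold toward articular and 1.25-fold toward xiphoid cartilage. In absolute size, 99.2% of tested genes had a larger log2 fold change.

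Mvd (Entrez gene 81726) encodes the decarboxylase that makes isopentenyl diphosphate, the building block of all isoprenoids. It was at 12.3 and 14.0 CPM in articular and 17.99 and 16.9 CPM in xiphoid cartilage. Both xiphoid libraries lay above both articular libraries, yet the difference did not pass (log2 fold change -0.41, SE 0.21, 95% interval -0.87 to 0.06, BH-adjusted p = 0.135).

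Idi1 (Entrez gene 89784), the next enzyme, interconverts isopentenyl and dimethylallyl diphosphate, the starter of chain building. Its level was 22.8 and 34.8 CPM in the articular libraries (191 and 271 counts) and 7.29 and 6.85 CPM in the xiphoid libraries (62 and 50 counts). The articular libraries differed from each other by 1.52-fold, the widest replicate gap of the 7 genes in either tissue, but the lower still lay above both xiphoid libraries. Idi1 transcript was thus higher in articular cartilage by 4.06-fold (28.8 ± 8.46 against 7.07 ± 0.312 CPM, SD, n = 2; 95% interval 2.76 to 5.96; log2 fold change 2.02, SE 0.25, BH-adjusted p = 3.99e-05). Leaving out each library in turn gave log2 fold changes of 1.69 to 2.30. In the RefSeq annotation Idi1 overlaps Wdr37, and no source used here states whether counting used strand, so the 2 genes' reads cannot be told apart where they overlap; Wdr37 itself was at 10.2 ± 1.56 against 9.67 ± 0.300 CPM (BH-adjusted p = 0.831).

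Fdft1 (Entrez gene 29580), squalene synthase, joins farnesyl diphosphate pairs and is the first enzyme committed to sterols. It was at 31.8 and 41.2 CPM in articular (266 and 321 counts) and 80.8 and 87.3 CPM in xiphoid cartilage (687 and 637 counts). Both xiphoid libraries stood well above both articular libraries. Fdft1 transcript was higher in xiphoid cartilage by 2.30-fold (84.0 ± 4.58 against 36.5 ± 6.65 CPM, 95% interval 1.77 to 2.98, log2 fold change -1.20, SE 0.17, BH-adjusted p = 0.00011), and the log2 fold change was -1.40 to -1.03 with each library left out in turn. The same overlap limit holds for Fdft1 with LOC134482130 and for Hmgcs1 with LOC102547360, neither of which was among the genes tested.

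Sqle (Entrez gene 29230), squalene epoxidase, adds the oxygen that becomes the sterol hydroxyl and is a second control point of the pathway. It was at 23.3 and 31.2 CPM in articular and 24.7 and 34.1 CPM in xiphoid cartilage. The replicates differed by 1.34-fold and 1.38-fold, more than the tissues did, and the groups overlapped. The difference did not pass (log2 fold change -0.11, SE 0.22, 95% interval -0.58 to 0.37, BH-adjusted p = 0.715).

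Lss (Entrez gene 81681), lanosterol synthase, folds squalene epoxide into the first sterol. It was at 62.7 and 58.4 CPM in articular and 73.0 and 73.4 CPM in xiphoid cartilage. The groups did not overlap, but the difference was small and did not pass (log2 fold change -0.27, SE 0.15, 95% interval -0.60 to 0.05, BH-adjusted p = 0.15). With Mvd, Idi1, Fdft1 and Dhcr7, Lss made up the 5 of 7 genes without overlap between tissues, which 74.9% of all tested genes shared.

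Dhcr7 (Entrez gene 64191) encodes 7-dehydrocholesterol reductase, which makes cholesterol from the precursor that skin also turns into vitamin D. It was at 15.2 and 19.3 CPM in the articular libraries (127 and 150 counts) and 89.5 and 102 CPM in the xiphoid libraries (761 and 745 counts). The tissues were far apart relative to their replicates. Dhcr7 transcript was higher in xiphoid cartilage by 5.56-fold (95.8 ± 8.89 against 17.2 ± 2.88 CPM, 95% interval 4.23 to 7.32, log2 fold change -2.48, SE 0.18, BH-adjusted p = 3.86e-07). Only 9.39% of tested genes had a larger absolute log2 fold change, against 12.6% for Idi1 and 25.5% for Fdft1. Its count joins 1 annotated transcript with 2 that the submitters' pipeline assembled, so a shift among transcripts cannot be seen. The same limit holds for Hmgcs1, Mvd and Sqle, each with 2 transcripts of which 1 was assembled.

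Ratios of counts within a library need no scaling between libraries. Transcript length cancels when the same ratio is compared between tissues, provided the mix of transcripts of each gene is the same in both. The Idi1 count was 1.504 and 1.81 times the Dhcr7 count in the articular pair and 0.0815 and 0.0671 times in the xiphoid libraries, a 22.3-fold difference of the mean ratios. Against Hmgcs1, Dhcr7 stood at 0.206 and 0.226 in articular and at 1.16 and 1.25 in xiphoid cartilage, and Fdft1 at 0.430 and 0.483 against 1.05 and 1.07. The Sqle ratio to Hmgcs1 overlapped between tissues, at 0.316 and 0.366 against 0.321 and 0.419. Dhcr7 made up 6.27% and 6.78% of the counts of the 7 genes in the articular pair and 24.2% and 25.4% in the xiphoid libraries, whereas Idi1 made up 9.44% and 12.2% against 1.97% and 1.70%.

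**Figure D2:**
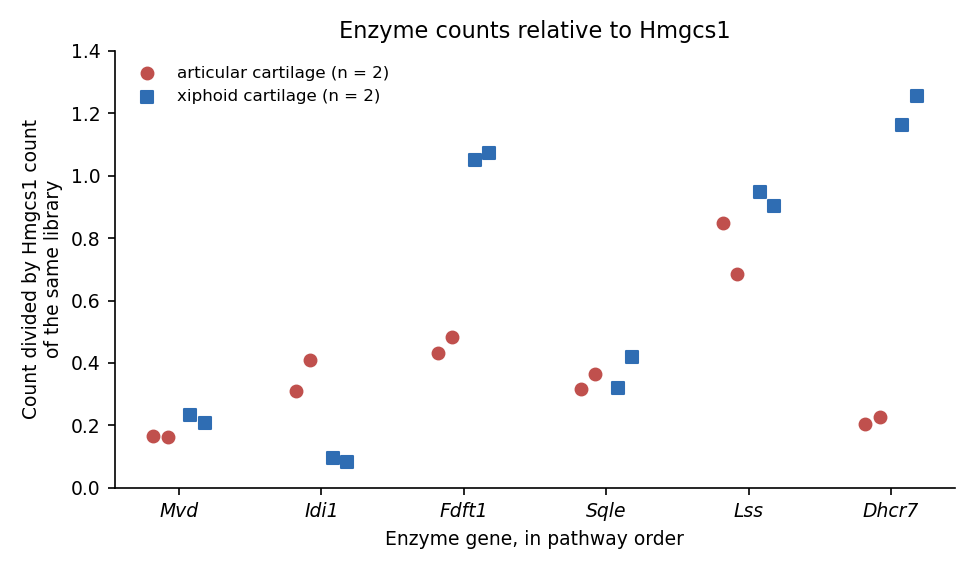
Count of each enzyme gene divided by the Hmgcs1 count of the same library (linear axis), for 2 articular (circles) and 2 xiphoid (squares) libraries. Dhcr7 lies at 0.206 and 0.226 in articular and 1.16 and 1.25 in xiphoid cartilage, and Idi1 runs the other way.

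Summed over the 7 genes, the level was 242 and 284 CPM in articular and 370.3 and 402 CPM in xiphoid cartilage, a ratio of 1.47 between the means. The sum hides the opposite changes, because Dhcr7 and Fdft1 gained and Idi1 lost CPM toward xiphoid cartilage. Between replicates, articular replicate 2 was above replicate 1 for 6 of the 7 genes (52.8% of all tested genes), with Lss as the exception, and xiphoid replicate 2 was above replicate 1 for 5 of the 7 (49.7%).

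Genes with the most similar course over the 4 libraries were found by the Euclidean distance between log2 CPM profiles, each centred on its mean, among 8057 other genes with at least 10 CPM on average. For Dhcr7 they were Smpdl3a, Timp4 and Slc16a10 (distances 0.0553, 0.0807 and 0.133), for Idi1 Zbtb10, Pkn2 and Xiap (0.0921, 0.111 and 0.138), and for Fdft1 Eci3, Lpcat3 and Gpat3 (0.0547, 0.0593 and 0.0786). Among the 7 enzymes themselves the distance ran from 0.246 between Mvd and Lss to 4.43 between Idi1 and Dhcr7. With 4 libraries in 2 tissues, such a distance is mostly set by the tissue difference.

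The other enzymes of the pathway were read from a list of 15, all tested. Of these, 6 were called toward xiphoid cartilage and 2 toward articular cartilage, and 7 missed the threshold, with a median log2 fold change of -0.37; 53.3% were called, against 49.5% of all genes. Without xiphoid replicate 1, 0 of the 15 were called toward articular cartilage. The 6 were Acat2, which makes acetoacetyl-CoA for Hmgcs1 (29.0 ± 0.907 (articular) against 65.6 ± 1.34 CPM (xiphoid), BH-adjusted p = 7.11e-05), Pmvk, the phosphomevalonate kinase ahead of Mvd (14.7 ± 6.27 against 33.0 ± 4.67 CPM, BH-adjusted p = 0.0029), Fdps, which supplies farnesyl diphosphate to Fdft1 (95.5 ± 9.22 against 167 ± 11.3 CPM, BH-adjusted p = 0.000819), Tm7sf2, Nsdhl and Erg28, a scaffold of the demethylation enzymes (29.2 ± 0.854 against 68.0 ± 6.26 CPM, BH-adjusted p = 6.56e-05). Idi1 thus stood between Pmvk and Fdps in the pathway while differing in the opposite direction from both.

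Among the late steps, the sterol C14 reductases Tm7sf2 and Lbr, which catalyse the same reaction, were called in opposite directions. Tm7sf2 was at 4.04 ± 1.72 (articular) against 11.4 ± 0.695 CPM (xiphoid) (log2 fold change -1.49, BH-adjusted p = 0.00242). Lbr, also the lamin B receptor of the nuclear envelope, was at 15.2 ± 0.500 against 8.38 ± 0.546 CPM (log2 fold change 0.86, BH-adjusted p = 0.00939), which did not pass without xiphoid replicate 1 (BH-adjusted p = 0.0635). Nsdhl, a sterol dehydrogenase, was at 20.5 ± 6.11 against 32.7 ± 5.49 CPM (BH-adjusted p = 0.0278) and did not pass without articular replicate 1 (BH-adjusted p = 0.115) or xiphoid replicate 2 (BH-adjusted p = 0.189). Cyp51, the lanosterol demethylase after Lss, and Msmo1, the methyl oxidase after it, had log2 fold changes of 0.19 (BH-adjusted p = 0.333) and 0.021 (BH-adjusted p = 0.926), and Mvk, the kinase ahead of Pmvk, had -0.37 (BH-adjusted p = 0.158).

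**Figure D3:**
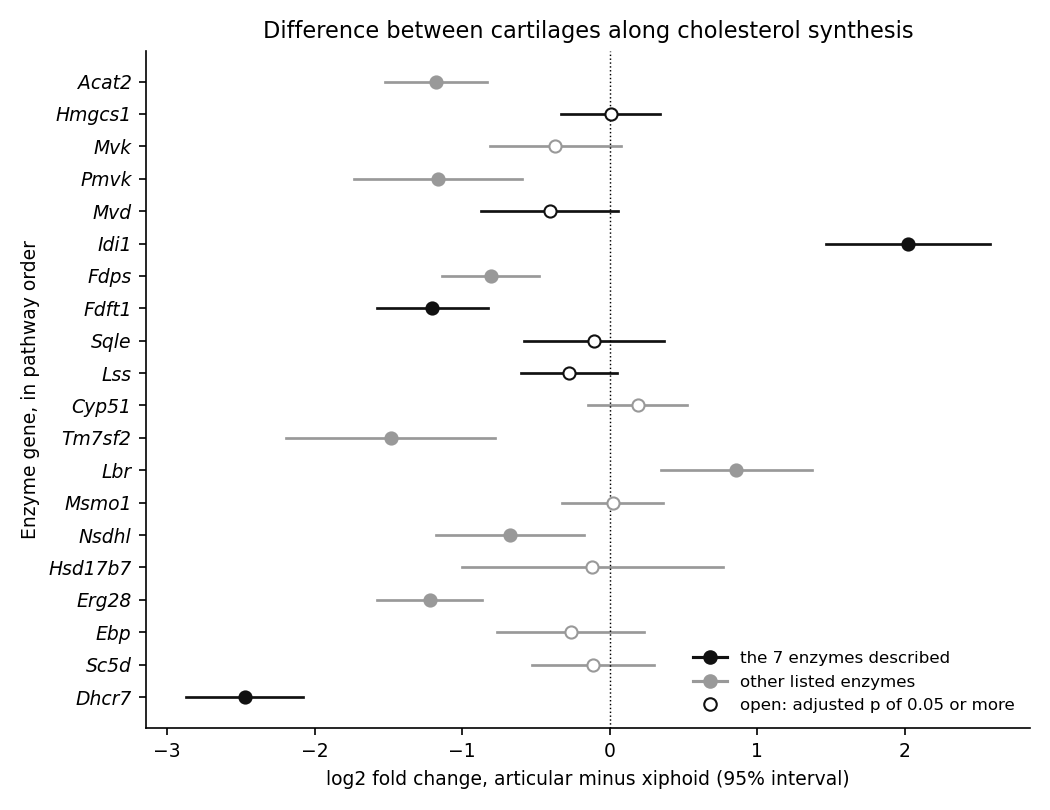
Log2 fold change (articular minus xiphoid, 2 libraries each) with 95% interval for the 7 enzymes (black) and 13 of the 15 other listed enzymes (grey), top to bottom in approximate pathway order; filled points passed at a BH-adjusted p under 0.05. Dhcr7 at -2.48 and Idi1 at 2.02 are the extremes of the genes drawn.

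Over the 7 enzymes and the 15 others together, 11 of 22 missed the threshold, and the median log2 fold change was -0.32. The 50% called lay close to the 49.5% of all tested genes. By direction, 8 were called toward xiphoid and 3 toward articular cartilage, where all tested genes had 24.5% and 25.0%. Of the 3, Idi1 alone passed without xiphoid replicate 1.

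The SREBP machinery list had 11 tested genes, of which 3 were called toward articular cartilage and 1 toward xiphoid cartilage. The other 7 missed the threshold (36.4% called against 49.5% of all tested genes, median log2 fold change -0.01). Srebf2, which encodes the SREBP most tied to sterol synthesis, was at 68.2 ± 6.75 (articular) against 55.7 ± 6.27 CPM (xiphoid), and Srebf1 at 179 ± 0.338 against 223 ± 4.22 CPM, and neither passed (BH-adjusted p = 0.156 and 0.0801). Of the proteases that release SREBPs, Mbtps1 (site-1 protease) was 1.82-fold higher in the xiphoid tissue (194.7 ± 0.935 against 355 ± 25.02 CPM, BH-adjusted p = 0.000317) and Mbtps2 (site-2 protease) 2.15-fold higher in the articular tissue (11.1 ± 0.0346 against 5.21 ± 1.55 CPM, BH-adjusted p = 0.00793; 0.0822 without xiphoid replicate 1). Insig1 was at 268 ± 5.405 against 205 ± 2.77 CPM (BH-adjusted p = 0.0353) and Insig2 at 72.0 ± 9.22 against 51.9 ± 1.298 CPM (BH-adjusted p = 0.0277), both higher in articular cartilage by less than 1.5-fold. Neither passed without articular replicate 2, xiphoid replicate 1 or xiphoid replicate 2 (BH-adjusted p from 0.0644 to 0.237), and the list then had 1, 0 and 1 genes called toward articular cartilage. Without articular replicate 1, 2 of its genes were called toward xiphoid cartilage.

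Genes of sterol handling beside synthesis were read from further lists. Called in either direction were 53.8% of the uptake and transport list and 60% of the efflux, oxysterol and LXR list. The share over all tested genes was 49.5%. Of 13 uptake and transport genes, 5 were higher in xiphoid and 2 in articular cartilage; these counts were 3 and 1 without xiphoid replicate 1, and the second was also 1 without articular replicate 2 or xiphoid replicate 2. Vldlr, a lipoprotein receptor, was 5.95-fold higher in the articular tissue (119.7 ± 15.8 against 20.1 ± 0.339 CPM, BH-adjusted p = 1.57e-07), while Scarb1, the receptor of high-density lipoprotein, was 2.09-fold higher in the xiphoid tissue (BH-adjusted p = 0.000114), as were the cholesterol carriers Npc2 (1.91-fold, BH-adjusted p = 0.000411) and Stard3 (1.87-fold, BH-adjusted p = 0.000449). Of 10 tested efflux, oxysterol and LXR genes, 4 were higher in xiphoid and 2 in articular cartilage. Nr1h3, which encodes the sterol sensor LXR alpha, was 8.66-fold higher in the xiphoid tissue (10.2 ± 0.862 against 88.2 ± 5.396 CPM, BH-adjusted p = 4.66e-08), Abcg1, a cholesterol exporter, 3.53-fold higher there (BH-adjusted p = 4.41e-05), and Ncor1, a corepressor of nuclear receptors, 2.12-fold higher in the articular tissue (BH-adjusted p = 0.000145).

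All 5 genes of cholesterol ester making and hydrolysis were called, 4 of them higher in xiphoid cartilage, against 49.5% called over all tested genes. Soat1, which esterifies cholesterol for storage, was 4.89-fold higher in the articular tissue (41.5 ± 9.36 against 8.48 ± 0.0192 CPM, BH-adjusted p = 4.72e-06). Lipe, the hormone-sensitive lipase of fat cells, was 13.5-fold (BH-adjusted p = 7.51e-09), Lcat, which esterifies cholesterol in lipoproteins, 7.93-fold (BH-adjusted p = 1.38e-06) and Nceh1, an ester hydrolase, 2.201-fold higher in the xiphoid tissue (BH-adjusted p = 0.00407). In the same libraries the 8 matched adipocyte markers stood far higher in the xiphoid tissue (2318 and 2952 against 69.6 and 84.6 CPM in sum), and their part in these differences was not tested.

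Of 12 tested genes of the nonsterol branches, 3 were called toward articular and 0 toward xiphoid cartilage, and 9 missed the threshold (edgeR). The 25% called lay below the 49.5% of all tested genes called in either direction. Against 25.0% and 24.5% of all tested genes, 25% of the list were called toward articular and 0% toward xiphoid cartilage. Toward xiphoid cartilage 3 had an unadjusted p under 0.05, DESeq2 and limma-voom called 0 and 0, and 1 was called with no low-count filter or without articular replicate 1, articular replicate 2 or xiphoid replicate 1. Dhdds and Nus1, the subunits of the enzyme that builds the dolichol chain from the products of Idi1 and Fdps, were at 36.3 ± 1.38 against 24.8 ± 4.22 CPM (BH-adjusted p = 0.0289; 0.275 without xiphoid replicate 2) and 90.0 ± 14.2 against 48.1 ± 6.17 CPM (BH-adjusted p = 0.000936). Pggt1b, a subunit of the geranylgeranyl transferase of small GTPases, was at 8.81 ± 0.442 against 3.78 ± 0.308 CPM (BH-adjusted p = 0.00533).

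Fatty acid synthesis, the other arm under SREBP control, had 11 of 14 tested genes called toward xiphoid and 0 toward articular cartilage. The share called, 78.6%, was all toward xiphoid cartilage, against 24.5% of all tested genes called that way and 49.5% in either direction. The other 3 genes of the list missed the threshold, and its median log2 fold change was -1.32. Toward articular cartilage 0 had an unadjusted p under 0.05 in edgeR, DESeq2 and limma-voom called 0 and 0, and 1 was called without articular replicate 1. Thrsp, a lipogenic regulator, was at 1.23 ± 0.464 (articular) against 276 ± 28.5 CPM (xiphoid) (BH-adjusted p = 3.75e-10), and Scd, a fatty acid desaturase with close relatives that can share reads, at 80.6 ± 18.7 against 4445 ± 560.2 CPM (BH-adjusted p = 1.63e-09). Fasn, fatty acid synthase, was 4.75-fold (BH-adjusted p = 1.36e-07) and Acacb, an acetyl-CoA carboxylase, 9.14-fold higher in the xiphoid tissue (BH-adjusted p = 6.51e-06). The adipocyte markers moved the same way, as given above, and their part in the list's counts was not tested. The list's median of -1.32 stood beside -0.27 for the 7 cholesterol enzymes and -0.37 for the other 15.

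**Figure D4:**
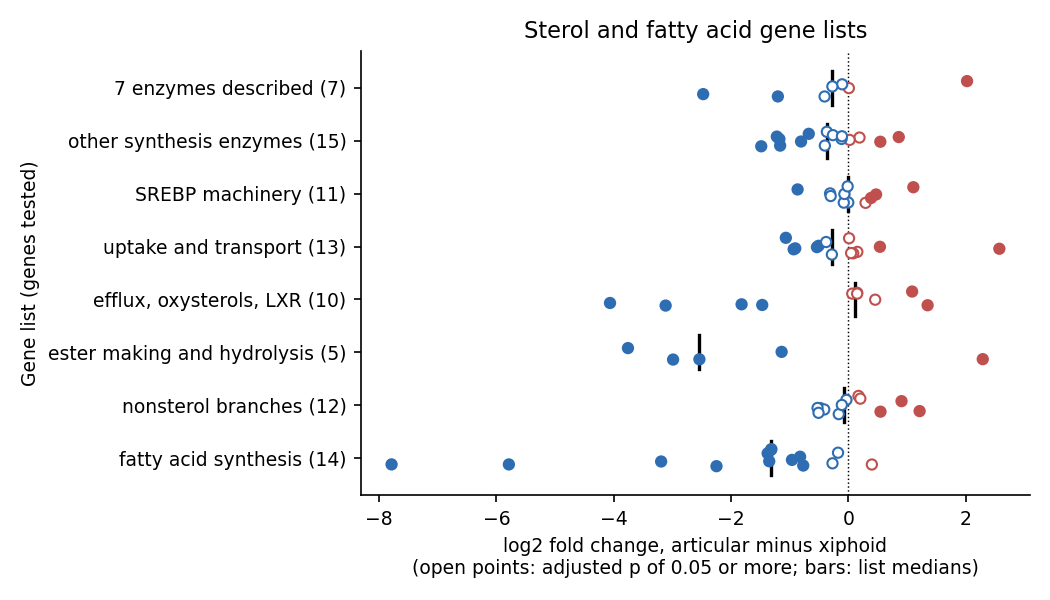
Log2 fold change (articular minus xiphoid) of each tested gene of the 7 enzymes and of 7 further lists, with the number tested in brackets; filled points passed at a BH-adjusted p under 0.05, red is higher in articular and blue higher in xiphoid cartilage, and black bars are medians. The fatty acid list lies mostly left of 0 with a median of -1.32, and the 7 enzymes spread to both sides of 0.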

How the data were processed

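RNA-seq of 2 articular and 2 xiphoid libraries was used. The deposited table gives expected counts per gene, without normalization (per the file headers and values). The submitters' processing notes list RSEM 1.2.12, Bowtie2 2.2.6, StringTie 1.2.1 and HISAT2 2.0.4 and build rn6; roles and strand use are not given in the sources used here.

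Counts were rounded to whole numbers (3.91% were not whole), filtered with filterByExpr (11202 of 13554 genes tested), scaled by TMM and tested with edgeR 4.0.16 (R 4.3.3; glmQLFit with robust estimation, glmQLFTest, tissue as the only term), with Benjamini-Hochberg adjustment over all tested genes at a threshold of 0.05. Log2 fold changes are articular minus xiphoid; the SE is the absolute fold change divided by the square root of F, and 95% intervals use the test's degrees of freedom. CPM are TMM-scaled. No transcript lengths were used, so ratios and shares of counts between genes are read only by their difference between tissues. At 7351010 to 8434820 counts per library, precision is limited by depth and by n = 2.

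The members, 7 pathway lists, 13 marker lists and a cell cycle list were chosen with earlier results of these data known. The members were taken by symbol, and their values were not used in that choice. Named genes were the members, the enzymes and SREBP genes listed, up to 4 genes of lowest adjusted p in each other pathway list less those not reported here, up to 2 of highest level in a marker list, and the 3 nearest profiles of a member; marker genes at no count and Wdr37 were named after their values were seen. Some listed genes are counted but not reported individually here. The cell cycle list summed to 203 and 208 CPM in articular and 84.4 and 85.7 CPM in xiphoid cartilage. The procedure was tested on simulated data. Alternatives were other scalings, filters, DESeq2 1.42.0, voom of limma 3.58.1, a replicate term, rows left out and libraries left out.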

Additional observations from a re-analysis of the deposited data

How the results depend on the processing

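The calls of Dhcr7, Fdft1 and Idi1 and their directions held under all 14 alternatives: scaling by RLE, by upper quartiles or by library size, testing every gene with a count or those with a mean CPM of 5 or more, DESeq2, limma-voom, the replicate block, no ribosomal RNA rows, no listed markers of other cell types, and each library left out. Leaving out marker rows does not alter the enzyme counts, so it does not address the makeup of the tissues. Leaving out 1 library leaves a lone sample that is assumed to vary like the rest. In that setting the log2 fold change of Hmgcs1 reached -0.10 and 0.11 and that of Sqle -0.33 and 0.15, with turned signs of -0.098 and -0.024 for Hmgcs1, 0.092 and 0.15 for Sqle and -0.032 and -0.051 for Msmo1 (up to 0.12), and none of these passed. With a library left out, pathway list genes called higher in articular cartilage ranged from 7 (without xiphoid replicate 1) to 14, against 13 with all libraries; the count was 10 with DESeq2 and 15 with the replicate block. The summed CPM ratio ranged from 1.36 to 1.59 with a library left out. With DESeq2, Nsdhl, Insig1 (both adjusted p = 0.0518), Insig2 (0.0586) and Dhdds (0.0661) did not pass, and the SREBP list had 1 gene instead of 3 called toward articular cartilage. Replicate numbers are shared between tissues, but no label ties them to an animal or batch; deviations of same-numbered libraries from their tissue means correlated at 0.24 over 11202 genes, which are not independent. With the replicate block, 3344 genes were called toward articular and 3484 toward xiphoid cartilage (2799 and 2745 without it), 3 members instead of 2 were higher in xiphoid cartilage, the added one being Lss (log2 fold change -0.27, adjusted p = 0.0409), and Srebf1 (adjusted p = 0.00373) and Srebf2 (adjusted p = 0.0312) passed. Under the block the SREBP list had 4 genes called toward articular and 3 toward xiphoid cartilage (3 and 1 without it), the nonsterol list 3 instead of 0 toward xiphoid cartilage, and the fatty acid list 1 instead of 0 toward articular cartilage.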
